A study of Mus musculus with 3 samples.

Results

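The microarrays carried probes for long intergenic noncoding RNAs whose names give a chromosome, a start and an end, followed by _F or _R, and nothing else. Every non-control probe with such a name was taken, apart from those on chromosomes X and Y, which left 15604 of the 55681 non-control probes. They covered 3387 regions under 4429 names, with 7890 probes ending in _F and 7714 ending in _R. The suffix is read here as the strand a probe was designed for, and the files do not say which strand of the RNA a probe with either suffix detects. The genome build behind the coordinates is not given in the sources used here, so the names are used as labels and no gene is assigned to them.

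Soleus (labelled SOL) muscle RNA of 8-week-old male C57BL/6 mice was compared between wildtype animals (WT) and animals of genotype Mettl21cLacZ/LacZ (KO), all fed chow. Mettl21c encodes a lysine methyltransferase of skeletal muscle, and the question was how its deletion changes gene expression. On each of 3 arrays WT RNA was labelled with Cy3 (green) and KO RNA with Cy5 (red), and each array is 1 of 3 biological replicates. Dyes were never swapped, so dye and genotype cannot be told apart. The labels do not say how many animals gave the RNA of 1 replicate, nor which cells express Mettl21c.

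Long intergenic noncoding RNAs are transcribed from DNA between protein-coding genes, and many were first recognised by chromatin marks of active promoters and of transcribed DNA. Such marks do not tell which strand is copied into RNA, which is why probes can be placed on both. Most of these RNAs are scarce and restricted to few tissues, while a small number are among the most abundant nuclear RNAs.

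The targeted gene was checked first. The Mettl21c probe had processed signals of 7527, 3677 and 4486 in WT and 200.4, 32.3 and 45.4 in KO on arrays 1 to 3, a mean log2 ratio of KO over WT of -2.45 (SD 0.48, n = 3; limma adjusted p = 0.0226), and it was well above background in KO on 1 array. It was the single probe of all 8297 tested that passed an adjusted p of 0.05 (0.0121%). Of 8 slow muscle markers 7 had a probe well above background in WT or KO on all 3 arrays, as had 8 of 8 fast muscle markers and 3 of 5 markers of skeletal muscle in general. By the brightest tested probe of each gene, 6 slow muscle markers had mean log2 ratios between -1.14 and 0.49, 4 of them positive. The lowest, Atp2a2, had a dimmer probe at 0.09, and the 2 Tnnt1 probes were at 0.40 and -0.19. Both pairs differed (limma on pair differences, adjusted p = 0.0431 and 0.0473). With the processed signals Myl3 went from 0.49 to 0.06 and Tnnt1 from 0.40 to -0.04. Tnnc1 (0.20) and Myl2 (0.18) stayed positive. The 6 fast muscle markers tested lay between -0.80 and 0.21, 5 of them negative. No ratio of these markers had an adjusted p under 0.05 in limma. The 6 macrophage markers tested had mean log2 ratios between -0.40 and -0.03 and the 3 red blood cell markers between 0.15 and 0.77, none with an adjusted p under 0.05 in limma. The 11 macrophage names stood for 10 genes, as Adgre1 was also listed as Emr1. Of these, 6 had a probe well above background in WT or KO on all 3 arrays, as had 5 of 8 red blood cell genes. Among the latter, Hba-a2 and Hbb-bt were not tested because they lacked a value on some array. In whole muscle, fewer cells of a type and less RNA per cell cannot be told apart, and the part of these cell types in the region results was not tested.

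Most region probes gave no signal above background in this muscle. A probe counts as detected here where Feature Extraction set its well-above-background flag on all 3 arrays in 1 channel. By this measure 558 region probes (3.58%) were detected in WT and 636 (4.08%) in KO, 533 of them in both, so that 661 (4.24%) were detected in at least 1 genotype. The higher share in KO was not particular to them, as all other non-control probes were at 18.5% in WT and 19.6% in KO. Of the region probes, 12808 (82.1%) lacked the flag throughout, in WT and KO alike. Among probes for RefSeq coding transcripts 24.5% were detected in at least 1 genotype, and among those for RefSeq noncoding transcripts 8.12%, so the region probes lay below both.

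Detection was nearly the same for both suffixes. Of _F probes 297 (3.76%) were detected in WT and 331 (4.20%) in KO. Of _R probes 261 (3.38%) were detected in WT and 305 (3.95%) in KO. The difference between suffixes was thus smaller than that between single arrays, on which _F detection in WT was 7.44%, 8.02% and 9.06% and _R detection in WT was 7.18%, 7.77% and 9.27%. In KO the same shares were 7.72%, 8.09% and 10.4% for _F and 7.74%, 8.31% and 10.9% for _R. Array 3 had the highest share for both suffixes in both channels.

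**Figure D1:**
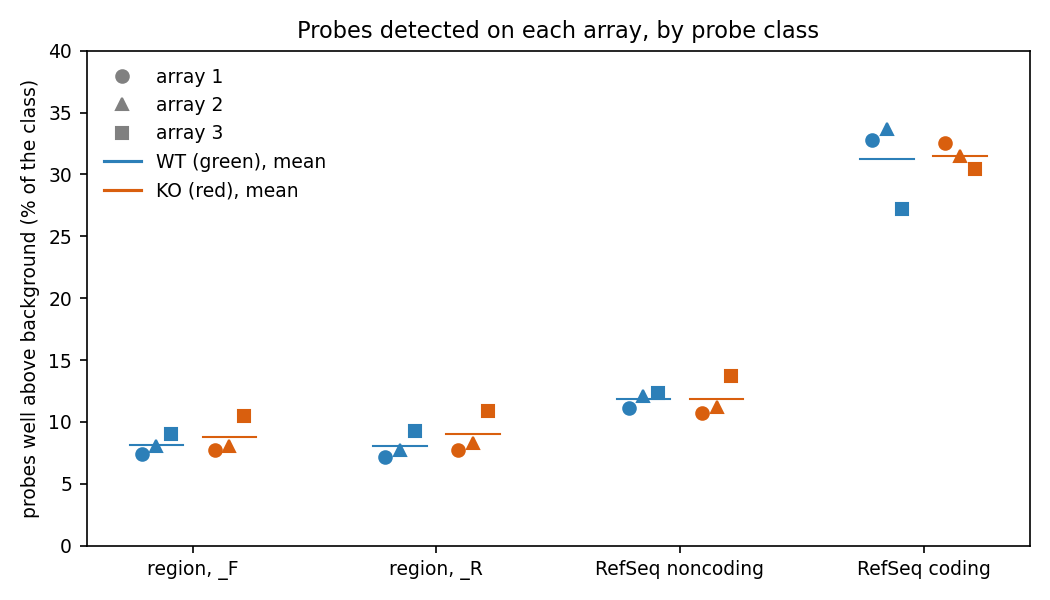
Share of probes well above background on each of the 3 arrays (y axis, percent of the class), for region probes ending in _F or _R and for RefSeq noncoding and coding transcripts, in WT (blue, green channel) and KO (orange, red channel); horizontal lines are means over arrays. Region probes lay between 7.18% and 10.9%, and array 3 was highest for them, while WT detection of coding transcripts was lowest there at 27.2%.

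Array 3 stood apart in which probes it detected. It alone flagged 977 region probes that no other array flagged in either channel, against 257 for array 1 and 430 for array 2. For all other non-control probes, those of chromosome X and Y regions included, these counts were 2134, 861 and 1250. With the chromosome X and Y regions left out, the WT counts of the other probes were 10758, 11089 and 9262 on arrays 1 to 3. There WT detection was thus lowest on array 3. For region probes the WT counts were 1141, 1232 and 1430 and the KO counts 1206, 1279 and 1666. Array 3 also held 1002 spots with an outlier flag, against 536 and 572. Without array 3, with detection asked of the other 2 arrays, 951 region probes were detected in WT, against 593 without array 1 and 572 without array 2.

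Detection that was complete in one genotype and absent in the other was confined to 2 of the 15604 probes, both _R and both complete in KO, with none in the other direction, and among the 39500 other non-control probes it was found for 6 in KO and 4 in WT. The probe for chr1:134883350-134883624_R was well above background in KO on all 3 arrays and in WT on none, with processed signals of 124, 219 and 138 in KO and 87.8, 105 and 86.6 in WT, without overlap. The probe for chr3:9401052-9415202_R had 91.6, 207 and 121 in KO and 95.7, 93.0 and 151 in WT, so that its groups overlapped. The mean log2 ratio of the first was 0.09 (SD 0.05, n = 3; limma adjusted p = 0.612) and that of the second 0.08 (SD 0.12, n = 3; limma adjusted p = 0.682), the second being -0.04 on array 1. With median centring and no loess the means were -0.015 and -0.042, so no fold is given for either.

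At the level of regions, 447 of 3387 (13.2%) had at least 1 detected probe. A region carried a median of 3 probes and spanned a median of 7451 bp, and regions with a detected probe were longer (median 13326 bp) than those without (6640 bp). Longer regions carried more probes: the share of regions detected was 6.61% among the shortest 25% of regions (62 to 794 bp) and 18.2% among the longest 25%, while the share of probes detected was 3.08% and 4.38%. By chromosome the share of region probes detected ran from 1.77% on chromosome 9 to 7.76% on chromosome 19, where 25 of 322 probes were detected. Many regions were not separate places, since 2015 of them (59.5%) overlapped another region and 972 lay wholly inside one.

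Where a region had probes of both suffixes, detection was mostly on 1 of them. Of 1042 such regions 260 had a detected probe, and of these 114 were detected on _F alone, 116 on _R alone and 30 on both. A detected _R probe was found in 30 of the 144 regions with a detected _F probe (20.8%) and in 116 of the 898 regions without one (12.9%). These regions carried a median of 10 probes against 3 in regions of 1 suffix. Among regions with a single suffix 93 of 1189 with _F (7.82%) and 94 of 1156 with _R (8.13%) were detected.

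Where a region name had several probes and any was detected, mostly only 1 was. Of 445 names with several probes and at least 1 detected, 325 (73.0%) had exactly 1 detected probe and 21 (4.72%) had all of them. For names with exactly 3 probes, 1571 had 0 detected, 116 had 1, 30 had 2 and 9 had all 3. Coding transcripts with exactly 3 probes and at least 1 detected had all 3 detected in 12.4% of cases, against 5.81% for region names. Single coding probes were also detected more often (24.5%) than single region probes (4.24%). Joint detection was not set against what these shares alone would give, so no lack or excess of it is read here. A region name can span several kilobases or more, so its probes need not lie in 1 transcript.

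The ratio of KO over WT was tested for probes with a value on all 3 arrays that were detected in at least 1 genotype. This held for 646 region probes, 339 with _F and 307 with _R, while 15 more were detected but had an outlier flag on some array. Their log2 ratios were taken after normexp background correction with an offset of 50, which pulls the ratios of dim probes toward 0, and loess within each array. No region probe passed limma's adjusted p of 0.05, and the smallest adjusted p was 0.0564. That count was 10 with trended and robust moderation, 4 with array weights, 3 with an offset of 16, 1 with no background subtraction, 1 with 1 probe for each name and 322, all lower, with median centring and no loess. In the same order, the counts over all tested probes were 97, 69, 39, 3, 7 and 5430. At an unadjusted p under 0.05 there were 16 region probes higher in KO (2.48%) and 49 lower (7.59%), where 5.64% and 7.99% of all 8297 tested probes were called. With the processed signals the 2 counts were 43 and 54, with an offset of 16 they were 33 and 47, with no background subtraction 34 and 39, and with median centring and no loess 0 and 366. Over all 8297 tested probes, both directions together gave 1131 in the main setting, and in the same order 922, 1046, 979 and 5841. Median centring also moved the median of all tested probes to -0.44. The count of higher region probes was 9 of 696 tested without array 2 and 28 of 1007 tested without array 3.

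Ratios of region probes were small. Their median log2 ratio was 0.0074, against -0.0033 for all tested probes, and the middle 50% of them ran from -0.07 to 0.07. Of the 646, 453 (70.1%) lay within 0.1 of 0, as did 60.7% of the other tested probes, and 11 were under -0.5 and 1 over 0.5. Region probes were also dimmer, with a median average log2 intensity of 6.46 against 6.82 for all tested probes, which limits how far a ratio can move with this offset. On all 3 arrays the same sign was found for 35.4% of region probes, against 35.8% of all tested probes.

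The 2 suffixes gave similar ratios. The median log2 ratio of _F probes was -0.00061, -0.0029 and 0.012 on arrays 1 to 3, and that of _R probes was 0.0048, -0.0018 and 0.023. The medians over arrays were 0.0034 for _F and 0.013 for _R, and the spread of these medians between arrays (SD 0.0079 for _F and 0.013 for _R) was of the same size as the gap. Where detection was asked in both genotypes, they were -0.0026 for _F and 0.00075 for _R. Of the _F probes 5 were higher and 27 lower at an unadjusted p under 0.05 in limma, and of the _R probes 11 were higher and 22 lower. No test of the difference between suffixes was made, since probes are not replicates.

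**Figure D2:**
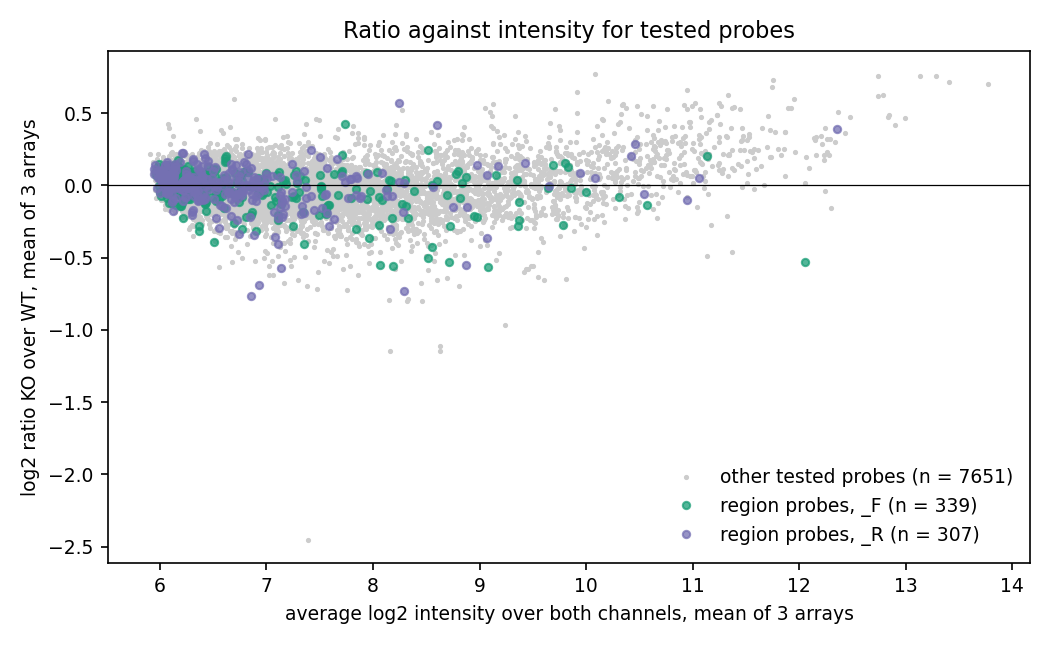
Mean log2 ratio of KO over WT (y axis) against average log2 intensity (x axis), each the mean of 3 arrays, for 7651 other tested probes (grey) and for region probes ending in _F (green, n = 339) and _R (purple, n = 307). Most region probes sit at the dim end near 0, and other probes brighter than a log2 intensity of 11 lie mostly above 0.

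The region probe with the smallest p, A_30_P01020935, belonged to a _R region on chromosome 19 that spans 2423 bp and has 3 probes. The probe had processed signals of 1327, 1069 and 910 in WT and 641, 212 and 123 in KO on arrays 1 to 3. WT was higher on every array and the groups did not overlap, and the probe was well above background in both genotypes on all 3. Its log2 ratios were -0.66, -0.85 and -0.79, with a mean of -0.77 (SD 0.10, n = 3; limma adjusted p = 0.0564), which is just outside the threshold. The processed signals, which carry no added offset, gave a mean of -2.09 with a wider spread (SD 0.95). Over 16 alternative settings the mean ran from -2.09 to -0.72 and the adjusted p from 0.00069 to 0.382, and it fell under 0.05 in 6 of them.

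The other probes of that region were much dimmer. A_30_P01019829 had 314, 355 and 188 in WT and 187.4, 92.9 and 61.9 in KO, well above background in WT on all 3 arrays and in KO on array 1. Its groups met without overlapping, as the lowest WT value, 187.8 on array 3, was just above the highest KO value, 187.4 on array 1. Its mean log2 ratio was -0.18 (SD 0.10; limma adjusted p = 0.351), and -1.43 with the processed signals. The remaining probe, A_30_P01021078, had 44.3, 95.4 and 20.3 in WT and 50.5, 22.8 and 25.3 in KO and was well above background on no array. The first 2 probes differed by -0.59 (SD 0.08; limma on pair differences, adjusted p = 0.0455), and this difference had an adjusted p of 0.428 with the processed signals, where it was -0.67. It was also lost without array 2 (adjusted p = 0.0659) and without array 3 (adjusted p = 0.127). A_30_P01019829 passed the filter through WT alone, and the offset pulls the ratio of so dim a probe toward 0. The part of this in the difference was not tested.

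**Figure D3:**
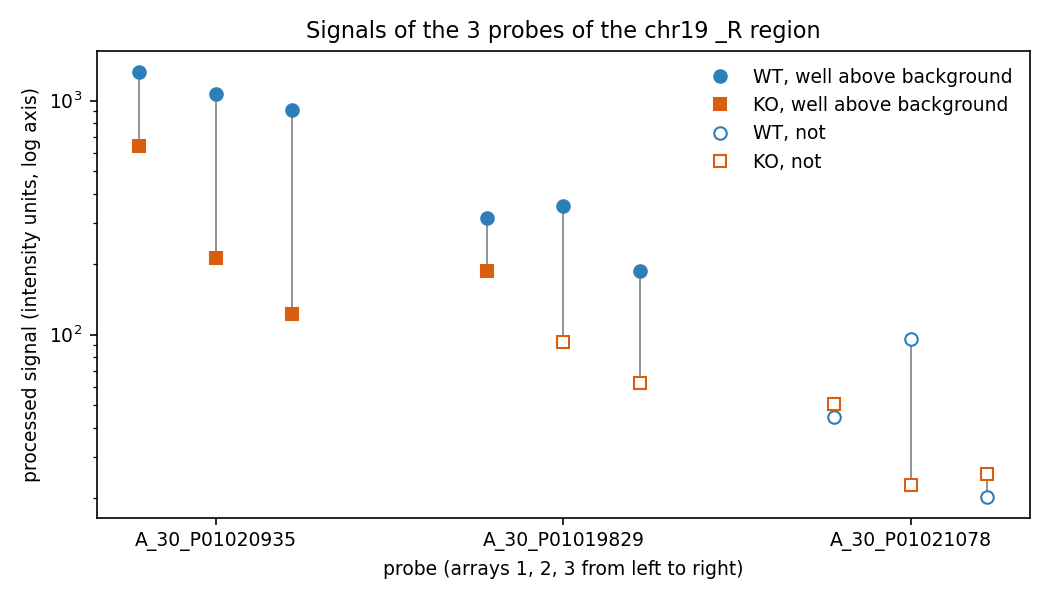
Processed signals (y axis, intensity units on a log axis) of the 3 probes of the 2423 bp chr19 region in WT (blue circles) and KO (orange squares), with arrays 1 to 3 from left to right and a line joining the channels of 1 array; open symbols are not well above background. A_30_P01020935 lies between 910 and 1327 in WT and between 123 and 641 in KO, while all 6 values of A_30_P01021078 are open.

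This chr19 region lies wholly inside a longer one, chr19:5771425-5848475, which had probes of both suffixes and contained 4 further short regions. Over these names 14 of 27 probes were tested, the most in any region with others inside it, and the mean log2 ratio was negative for 8 of 8 _R probes and 4 of 6 _F probes. Over all 646 tested region probes, 52.9% had a positive mean. Of the detected region probes, 103 were detected in KO alone and 25 in WT alone. Where detection was asked in both genotypes, 519 region probes were tested and 49.3% had a positive mean. The counts in this nest include A_30_P01020935 itself, and probes of overlapping regions are not separate support for one another. Among its negative probes, A_30_P01019829, A_30_P01021970 and A_30_P01028198 passed the filter through WT alone, the channel in which they were higher. A_30_P01031405 passed through KO alone. The part of the filter in these counts was not tested. The next region along, chr19:5801802-5802597_R, had all 3 of its probes detected. Its brightest probe had processed signals of 8130, 8789 and 9921 in WT and 5945, 6501 and 7711 in KO, without overlap, and a mean log2 ratio of -0.37 (SD 0.12; limma adjusted p = 0.120). Its other probes were at -0.23 and -0.11. The latter, A_30_P01021970, had signals of 212, 213 and 5732 in WT and 147, 106 and 4162 in KO, far higher on array 3.

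The 2 tested probes of chr19:5834117-5835940_R were at -0.22 and -0.09, the 1 tested probe of chr19:5795690-5797464_F at -0.07, and none of the 3 probes of chr19:5841103-5845579_F was tested. The probe at -0.09, A_30_P01019037, had signals of 1440, 1192 and 7513 in WT, highest on array 3. Its mean was 0.25 with the processed signals, so its sign turned. Under the long region's own name, 5 _F probes ran from -0.22 to 0.04 and 1 _R probe was at -0.0095 (SD 0.24). That _R probe was among the brightest here, and its sign turned in 6 alternatives.

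**Figure D4:**
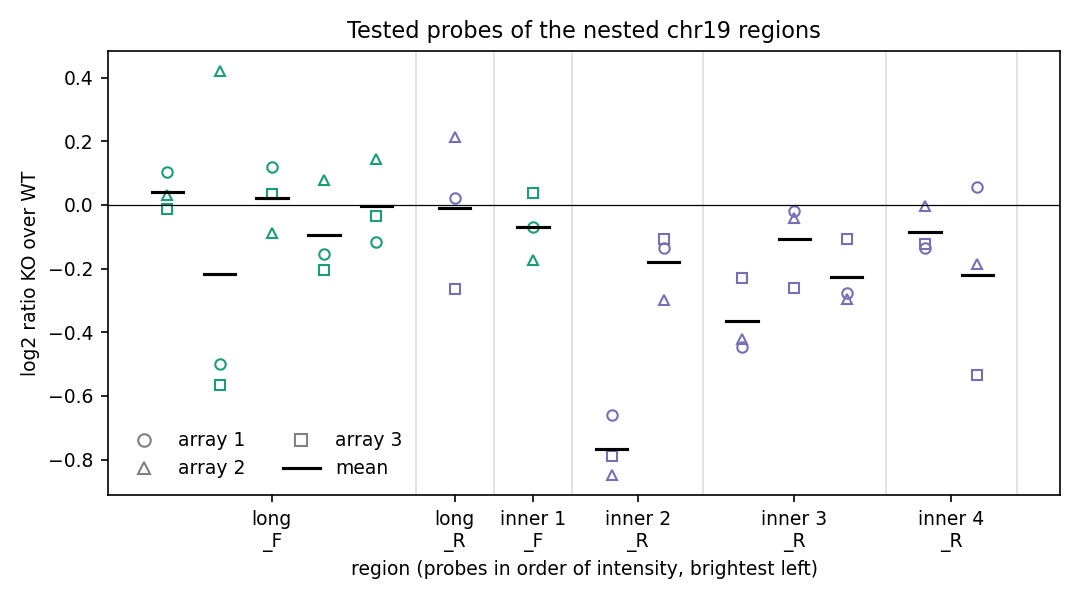
Log2 ratio of KO over WT (y axis) on arrays 1 to 3 (circle, triangle, square) and their mean (bar) for the 14 tested probes of the long chr19 region (long) and of 4 short regions inside it in order of position (inner 1 to inner 4), _F in green and _R in purple. The brightest probe of inner 2, A_30_P01020935, is lowest at -0.77, and all 3 probes of inner 3 have a negative mean.

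The nest with the next most tested probes, chr17:39960567-39992817 with 4 regions inside it, also had mostly negative ratios. It was picked because it holds a probe with 1 of the smallest p among those lower in KO, so negative ratios were likely from the choice. Of its 13 tested probes, 12 had a negative mean, 7 of 8 with _F and 5 of 5 with _R. Of all 646 tested region probes 52.9% had a positive one, and 49.3% where detection was asked in both genotypes. The 13 probes come from overlapping regions and are not separate support. The brightest of them, a _F probe of the long region, had a mean of -0.28 (SD 0.31). Within chr17:39983902-39985688_F the 3 probes were at -0.53 (SD 0.20; limma adjusted p = 0.0898), -0.28 (SD 0.36) and -0.24 (SD 0.22). The first had processed signals of 6319, 5167 and 7221 in WT and 5510, 3017 and 5005 in KO, which overlap between arrays though KO was lower on each. Both probes tested in chr17:39982023-39983277_F were also negative, at -0.56 (SD 0.40) and -0.39 (SD 0.23). On arrays 2 and 3 most of these ratios were lower than on array 1.

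Other region probes with the smallest p among those lower in KO were single probes. For chr1:85300475-85331475_R the signals were 1291, 1355 and 1585 in WT and 838, 514 and 504 in KO, without overlap, at a mean log2 ratio of -0.69 (SD 0.30; limma adjusted p = 0.0898). For chr2:31714946-31716972_F they were 3803, 4027 and 4520 in WT and 3249, 2800 and 2572 in KO, again without overlap, at -0.55 (SD 0.25; limma adjusted p = 0.102). Probes of chr6:121035216-121035648_R and chr5:34696192-34722842_F were at -0.55 (SD 0.26) and -0.56 (SD 0.30), and that of chr5:26323150-26357875_R at -0.35 (SD 0.09). The 8 lower probes named here, the chr19 and chr17 ones included, had a negative mean in every alternative in which they were tested. They were picked for having the same sign on every array, so leaving out or weighting arrays could not turn them. Changes of filter or moderation alone left the mean as it was. Only settings that change the ratios of single arrays, such as the background correction or the processed signals, could have turned a sign.

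Among region probes higher in KO, chr1:183832694-183834125_R was first. Its signals were 3048, 2373 and 2325 in WT and 4900, 3209 and 4091 in KO, without overlap, and its log2 ratios 0.64, 0.40 and 0.68 gave a mean of 0.57 (SD 0.15; limma adjusted p = 0.0806). The probe of chr18:47313842-47315840_F had 2014, 2875 and 1768 in WT and 3080, 4415 and 2144 in KO, higher in KO on each array but overlapping between arrays, at 0.42 (SD 0.08; limma adjusted p = 0.0898). Dimmer probes of chr13:34693404-34717987_R and chr4:133212951-133214017_R were both at 0.23 (SD 0.04 and 0.14). The brighter tested probe of chr14:26973425-26986650_F was at 0.24 (SD 0.15), while a dimmer tested probe of that name was at 0.0071. With median centring and no loess, 6 of the 8 named higher probes turned negative, among them chr1:183832694-183834125_R at -0.15 where the median of all tested probes was at -0.44. All 8 stayed positive in the other alternatives. Because they too were picked for having the same sign on every array, those that drop or weight arrays or change only the filter or moderation could not turn them.

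Few region probes were bright. Above an average log2 intensity of 8 there were 76 (11.8% of the 646, against 23.4% of other tested probes), above 10 there were 12 and above 12 there were 2. The brightest, in chr17:17481706-17482457_R, had processed signals of 70027, 87684 and 91555 in WT and 77972, 84373 and 92768 in KO, which overlapped. Its mean log2 ratio was 0.39 (SD 0.10; limma adjusted p = 0.101) after loess and 0.04 with the processed signals. Of the 33 other probes above 12, 93.9% had a positive ratio with a median of 0.34, so this value lay near that of probes of like intensity.

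The same held for chr16:43623581-43642715_F, at 0.21 (SD 0.08) after loess and 0.015 with the processed signals, where the 110 other probes between 11 and 12 had a median of 0.24. The brighter tested probe of chr5:23349978-23402028_R was at 0.29 (SD 0.11) and 0.13 with the processed signals. Other probes between 10 and 11 had a median of 0.14. A dimmer tested probe of this name had the opposite sign, at -0.21, and the pair differed by 0.49 (SD 0.15, limma on pair differences, adjusted p = 0.0657). The second brightest region probe had a negative mean. In chr14:78924115-78938125_F the signals were 69028, 68453 and 111621 in WT and 51834, 35960 and 42896 in KO, without overlap, and its log2 ratios were -0.00061, -0.56 and -1.03 after loess. Their mean was -0.53 (SD 0.52; limma adjusted p = 0.273). With the processed signals the ratios were -0.41 on array 1 and -1.38 on array 3, with a mean of -0.91 (SD 0.48).

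For the rest of the 8 brightest the mean after loess was smaller than its SD. The probe of chr1:193875525-193978800_R was at 0.05 (SD 0.12), that of chr12:73838608-73862621_R at -0.10 (SD 0.16), that of chr12:74135916-74142780_F at -0.13 (SD 0.22) and that of chr14:77006215-77063293_R at -0.06 (SD 0.14). With the processed signals they were, in the same order, at -0.12 (SD 0.14), -0.20 (SD 0.15), -0.53 (SD 0.46) and -0.19 (SD 0.12), so that the last 3 exceeded their SD. The first of these turned negative in 6 alternatives.

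Both suffixes of the same region were tested in 29 regions, and the brightest _F and _R probe of each can be set side by side. In chr12:73838608-73862621 the _F probe was at -0.50 (SD 0.40) and the brighter _R probe at -0.10 (SD 0.16), a gap of -0.40 (SD 0.25 over arrays). In chr14:105497388-105511063 the _F probe was at -0.09 and the _R probe at 0.22, a gap of -0.30 (SD 0.07). In chr11:95627874-95640824 they were at -0.22 and 0.03, a gap of -0.24 (SD 0.24). In the other 5 of the 8 brightest regions, chr17:39960567-39992817 and chr19:5771425-5848475 among them, the gap lay between -0.13 and 0.17. These gaps compare 1 probe with 1 probe, and no test was made of them.

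Probes of the same name gave a check on single ratios. Taking tested probes of 1 name in order of intensity, 179 neighbouring pairs came from 120 region names, 107 pairs with _F and 72 with _R. Limma called 1 region pair different at an adjusted p of 0.05, where 6 of all 839 such pairs (0.715%) were called. At an unadjusted p under 0.05 there were 16 region pairs (8.94%) and 124 of all 839 (14.8%). The called pair was A_30_P01020935 with A_30_P01019829. The median size of the difference was 0.09 for region pairs and 0.10 for the other 660 pairs, and the signs matched in 106 of 179 (59.2%) and 413 of 660 (62.6%). Across region pairs the ratios had a Pearson r of 0.49 and a Spearman rho of 0.36, and across other pairs 0.30 and 0.32, as a description over pairs that share 3 arrays and, within a name, probes.

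**Figure D5:**
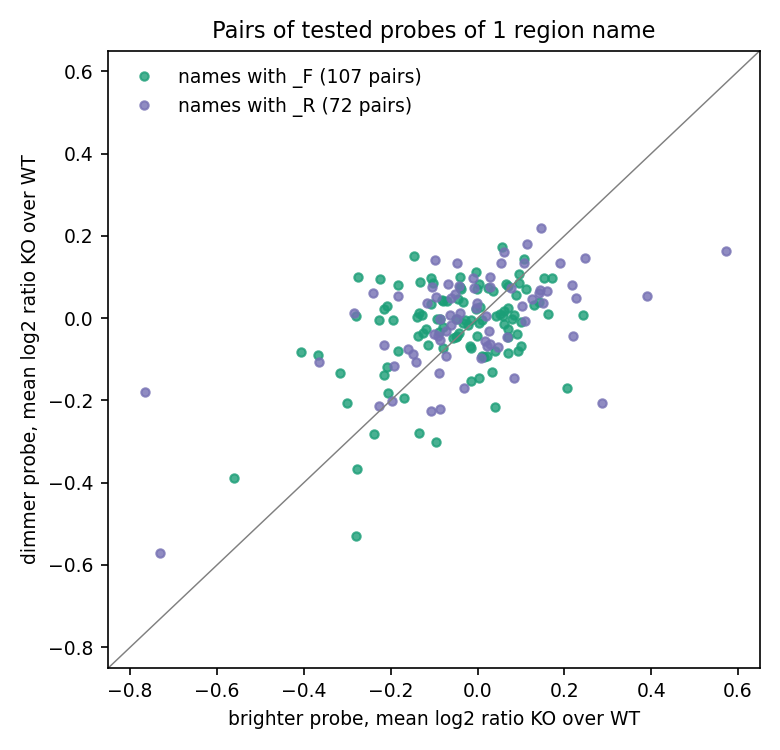
Mean log2 ratio of KO over WT of the brighter (x axis) and dimmer (y axis) probe of 179 neighbouring pairs of tested probes of 1 region name, with _F names in green (107 pairs) and _R names in purple (72 pairs); the line marks equal ratios. Most pairs lie near 0, and few lie far from it on both axes.

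Among the brightest pairs, the probes of chr17:17481706-17482457_R were at 0.39, 0.05 and 0.14 in order of intensity, and the first 2 differed by 0.34 (SD 0.13; limma adjusted p = 0.173). Those of chr5:35975265-35982561_R were at 0.08 and -0.15, a difference of 0.23 (SD 0.03; limma adjusted p = 0.265). The brightest 2 of chr16:43623581-43642715_F were at 0.21 and -0.17, with opposite signs (limma adjusted p = 0.186). Those of chr12:74135916-74142780_F, at -0.13 and -0.28, had the same sign. In this last name all 4 tested probes were negative, from -0.37 to -0.09.

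Of 39 names with at least 3 tested probes, 11 had only negative means, 6 only positive ones and 22 both. The name with most tested probes, chr17:26911397-26917047_F, had 9 of 10 tested, 5 of them negative, from -0.30 to 0.04. In chr15:68161768-68193518_R all 4 were positive, from 0.08 to 0.25. One pair far from 0 on both axes was spread between arrays: the probes of chr7:119735208-119822808_R were at -0.73 and -0.57, with log2 ratios of -0.69, 0.38 and -1.89 for the brighter one (SD 1.14). That pair was picked out after its values were seen, and array 2 went against the other arrays.

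Named long noncoding RNA genes on the same arrays can be set beside the regions. Of 74 names listed, 64 matched a gene in the RefSeq table (GRCm38.p6, used for names only), 43 had a probe, and 15 were tested. The mean was above 0 for 7 of these and below 0 for 8, their median was -0.0081, and 0 passed limma's adjusted p of 0.05 and 0 an unadjusted p under 0.05. Norad, a cytoplasmic RNA that binds Pumilio proteins, had the smallest p, at -0.27 (SD 0.35). Meg3, an imprinted RNA, was at 0.08 (SD 0.06) and Neat1, the scaffold of nuclear paraspeckles, at 0.09 (SD 0.23). Dleu2 and Lncpint were at -0.14 (SD 0.10) and -0.10 (SD 0.08), Dancr at 0.11 (SD 0.11), Peg13 at 0.30 (SD 0.61) and Mrln, whose transcript encodes the micropeptide myoregulin, at -0.10 (SD 0.17). Neither the regions nor these genes held a probe past the threshold.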

How the data were processed

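The sources were 3 Agilent scanner files and the series matrix. Per the file headers, signals were extracted with Agilent Feature Extraction 12.0.3.1, while the submitters' processing notes name 11.5. The deposited intensity columns are median spot and background signals and processed signals, background-subtracted and dye-normalised per the file headers. The deposited log10 ratios are red (KO) over green (WT), and those of the series matrix equal the scanner's to within 0.005. The deposited flags are 0 or 1. With limma 3.58.1 in R 4.3.3, median signals were background-corrected (normexp, offset 50) and normalised by loess within arrays, control and outlier-flagged spots having weight 0. Spots of a probe were averaged, and the mean log2 ratio over 3 arrays was tested with lmFit and eBayes, with Benjamini-Hochberg adjustment over all 8297 probes that had a value on every array and were well above background on all 3 in 1 channel. A flag counts for a probe where all its spots carry it. Detection shares of all other non-control probes leave out the region probes of chromosomes X and Y. Other tested probes and other pairs include them. Pair differences were tested likewise over 839 pairs. The fit and the pair test were tested on simulated data. The number of arrays limits the precision, and p-values measure the spread between 3 replicates.

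All 3 arrays were on 1 slide and scanned on the same day. Regions, probes and gene lists were chosen with earlier results of these data known. Named probes are all those of chr19:5798135-5800557_R (the 2423 bp chr19 region), the 8 smallest p in each direction with 1 sign on 3 arrays, the 8 brightest, up to 8 regions tested on both suffixes, up to 6 brightest pairs and those well above background on all arrays in 1 genotype and none in the other. Other probes named, in the chr19, chr17, chr15 and chr7 names and the names with most tested probes, were chosen after their values were seen. Of 29472 probes with a RefSeq accession, 28664 matched a gene.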

Additional observations from a re-analysis of the deposited data

How the results depend on the processing

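With 3 arrays and mostly dim probes, small differences are not detectable; the causes of the changes below were not tested. The test is already paired, because each ratio joins WT and KO on 1 array, so no separate paired analysis was made. Region probes called at an adjusted p of 0.05 were 0, and 3 with an offset of 16, 1 with no background subtraction, 322 with median centring and no loess (5430 of all 8297), 10 with trended and robust moderation, 4 with array weights, 1 with 1 probe for each name, 5 at an adjusted p of 0.1, and 0 with any array left out. Those higher at an unadjusted p under 0.05 were 16, and in the first 3 of these settings 33, 34 and 0, with processed signals or series matrix values (chosen after seeing the data) 43, with no filter 239, with trended and robust moderation 37, and 9 to 28 with an array left out. Those lower were 49, and 366 with median centring, 247 with no filter and 39 to 63 with an array left out. These counts have unlike denominators. Region probes tested were 646 in the main setting, 15445 with no filter and 692, 696 and 1007 without arrays 1, 2 and 3. In both directions together, no filter gave 486 region probes and 3494 of all 54859 tested.

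The chr19 probe A_30_P01020935 was at -1.18 with an offset of 16, -1.15 with no background subtraction, -1.21 with median centring, -0.77 with trended and robust moderation, array weights or 1 probe for each name, each under an adjusted p of 0.05, and -0.82 to -0.72 with an array left out. Its pair difference was called in the report's setting and not with an offset of 16 (-0.80), no background subtraction (-0.73), processed signals or series matrix values (-0.67) or no filter (-0.59), nor without replicate 2 or 3 (-0.62 to -0.54 over the 3 arrays left out). Region pairs called were 1, and 0 with those settings, 31 with median centring, 2 with trended and robust moderation, 6 with array weights and 0 to 2 with an array left out. With the filter on both channels 0 were called, but there A_30_P01019829 did not pass and the chr19 pair was not formed. Median ratios of _F and _R probes were 0.013 and 0.026 with an offset of 16, 0.021 and 0.039 with no background subtraction and -0.30 and -0.33 with median centring; that of _R was 0.041 with processed signals or series matrix values and -0.0032 with no filter. Detected in WT and KO were 2245 and 2551 region probes on at least 1 array, 1000 and 964 on at least 2, 1404 and 1449 by the positive-and-significant flag, and 572 to 951 and 674 to 872 with an array left out.

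Signs of named probes turned as follows. Median centring without loess gave -0.15 for chr1:183832694-183834125_R, -0.22 for chr18:47313842-47315840_F, -0.52 for chr14:26973425-26986650_F, -0.72 for chr5:23349978-23402028_R, -0.87 for chr16:43623581-43642715_F (A_30_P01019621), -0.71, -0.84 and -0.90 for A_30_P01018662, A_30_P01022075 and A_30_P01025369 of chr17:17481706-17482457_R, -1.02 for chr1:193875525-193978800_R, -0.17 for chr17:46972160-46997919_R, -0.44 for the long chr19 _F probe A_30_P01020769, -0.042 for chr3:9401052-9415202_R, -0.015 for chr1:134883350-134883624_R, -0.77 for chr14:26834450-26847000_F, -0.22 for chr14:105497388-105511063_R, -0.70 for chr6:83368261-83407280_F, -0.85 for A_30_P01032382 of chr5:35975265-35982561_R and -0.39 for chr11:95627874-95640824_R. Processed signals and series matrix values gave -0.15 for chr17:46972160-46997919_R, 0.032 for its _F probe, -0.12 for A_30_P01025369, -0.12 for chr1:193875525-193978800_R, 0.073 for the long chr19 _R probe A_30_P01028538, 0.063 for chr14:105497388-105511063_F, -0.019 for A_30_P01032382 and -0.28 for chr11:95627874-95640824_R. For A_30_P01028538 an offset of 16 gave 0.021, no background subtraction 0.043 and array weights 0.061; for chr1:193875525-193978800_R the first 2 gave -0.049 and -0.094; array weights gave 0.00079 for chr17:46972160-46997919_F and no background subtraction -0.0023 for A_30_P01025369. With an array left out the range was -0.025 to 0.040 for chr17:46972160-46997919_R, -0.11 to 0.056 for its _F probe, -0.093 to 0.022 for chr14:26834450-26847000_R, -0.14 to 0.0029 for chr14:77006215-77063293_R, -0.017 to 0.10 for A_30_P01025369, -0.12 to 0.028 for chr6:83368261-83407280_R, -0.00060 to 0.12 for chr1:193875525-193978800_R, -0.12 to 0.12 for A_30_P01028538 and -0.025 to 0.13 for chr11:95627874-95640824_R.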
